A study of Drosophila melanogaster with 10 samples.

Results

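The neuropeptide and peptide hormone genes described here are 40 named genes of the fly: precursors of neuropeptides and peptide hormones, insulin-like peptides, and amontillado (amon), an enzyme that cuts such precursors. They were chosen by name, and 39 of them were found in the count table of 14352 genes by FlyBase ID or gene name. Gpb5 was not matched and is not analysed here. The questions asked of them were which were expressed above 2 TPM (the study's cutoff for an expressed gene) in the adult ventral nerve cord (VNC, the fly counterpart of the spinal cord), and which changed after injury.

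RNA was sequenced from adult VNCs of w1118, a laboratory strain with white eyes that both groups share. The 5 uninjured libraries came from flies kept without food in agar vials for 5 hr, and the 5 injured libraries from flies dissected 5 hr after legs, wings and head were cut off, which lay on a humid agar plate. Each library is a pool of VNCs from males and females, so the spread between libraries is a spread between pools. The sample labels give 60 to 80 VNCs collected and an age of 3 to 10 days, whereas the RNA-seq methods of the study give fewer VNCs per library and a narrower age range. Severed nerves, the loss of the head and its hormone-producing cells, and the housing cannot be told apart in this design. Counts summed to between 5763891 and 6640492 per uninjured library and between 5146470 and 6625705 per injured library. Libraries carry the numbers 1 to 5 of their count columns, which could not be matched to the replicates named in the labels. In whole-tissue RNA, fewer cells of a type and less RNA per cell cannot be told apart.

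Neuropeptides are cut from larger precursor proteins in dense-core vesicles, usually amidated at their C-terminus, and released to act on G protein-coupled receptors on nearby or distant cells. In the VNC they are made by small sets of identified neurons, among them motor and interneurons and neurosecretory cells that release hormones into the hemolymph. The abdominal ganglia hold leucokinin and Capa neurosecretory cells that control water balance, and the thoracic ganglia hold FMRFamide neurosecretory cells. Several of the peptides are also made by endocrine cells of the gut, and others chiefly by the brain.

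Levels are given as the deposited TPM, read numbers divided by the length of a gene's longest transcript and by the mapped reads of the library, which allows genes of different length to be compared. Of the 39 matched genes, 25 had a mean above 2 TPM in at least 1 group and 14 did not. In uninjured VNCs 23 were above 2 TPM, of which 7 were above 100 TPM and 10 lay between 10 and 100 TPM. Ilp6 and Akh were above 2 TPM in the injured group only. The order in uninjured VNCs began with Nplp1 at 340 ± 25.2 TPM (mean ± SD, n = 5 libraries), the gene of rank 92 of all genes by mean TPM. It was followed by Proc at 302 ± 23.4 TPM, Lk at 265 ± 40.2 TPM, Capa at 244 ± 18.6 TPM and FMRFa at 161 ± 14.4 TPM. These 5 genes made up 68.7% to 71.8% of the summed TPM of the 39 genes in each uninjured library. Next came amon at 130 ± 6.5 TPM and Nplp2 at 104 ± 29.4 TPM, then Dh31 at 65.0 ± 6.04 TPM, AstA at 54.3 ± 3.09 TPM and sNPF at 42.2 ± 2.58 TPM.

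Most neighbours in this order could not be separated. Of the 38 neighbouring pairs, 6 had uninjured ranges that did not overlap, namely Capa above FMRFa, FMRFa above amon, Nplp2 above Dh31, AstA above sNPF, Ms above ITP, and amn above Ilp2. Among the 4 highest, each range overlapped the next, while Nplp1 lay above Lk and Capa, and Proc above Capa, in every uninjured library.

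The 14 matched genes below 2 TPM had at most 19 counts in any library. They were Hug, Ilp3, NPF, Crz, ETH, SIFa, Pburs, Dsk, Burs, AstCC, Ilp5, Ilp8, Eh and Nplp4. Among them are peptides known chiefly from the brain, such as SIFamide, eclosion hormone (Eh) and the insulin-like peptides Ilp3 and Ilp5, the bursicon subunits Burs and Pburs that harden the cuticle after eclosion, and ecdysis triggering hormone (ETH) of the tracheal Inka cells. For 12 of the 14 at least 1 library held 3 counts or fewer. The lowest count listed was 1, which can include genes without a read. The 14 were left out of the main test, and in an edgeR fit without the filter 0 of them passed (lowest adjusted p = 0.157, for NPF, the 1 gene with an unadjusted p under 0.05).

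**Figure D1:**
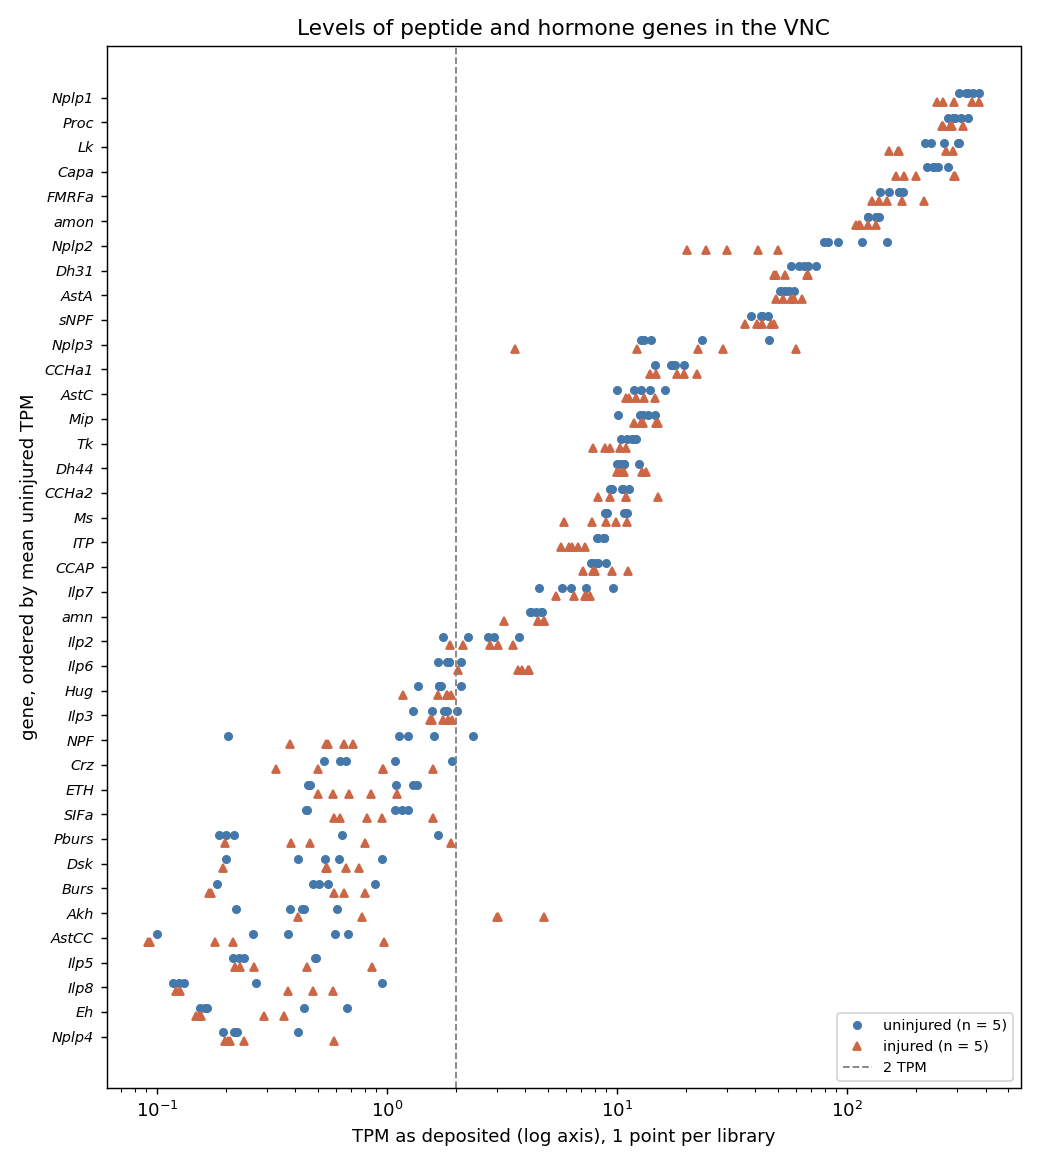
TPM of the 39 matched genes in each of the 10 libraries, on a log axis, ordered by mean uninjured TPM. Circles are uninjured and triangles injured libraries, and the dashed line marks 2 TPM. Nplp2 lies lower in all 5 injured libraries, and Akh is above 2 TPM in 3 injured libraries and in none of the uninjured ones.

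The 2 groups were tested with edgeR's quasi-likelihood method on the counts of all 9365 genes with a mean above 2 TPM in at least 1 group, with p-values adjusted over all of them (Benjamini-Hochberg) and a threshold of 0.01. Of the 25 peptide genes tested, Ilp6 was upregulated, Nplp2 and ITP were downregulated, and 22 did not pass. Of all genes tested, 7.55% passed as higher and 6.13% as lower, against 1 (4%) and 2 (8%) of the 25 peptide genes, shares near those of all genes. TPM ranges of the groups did not overlap for 2 of the 25, Nplp2 and ITP, whereas 15.8% of all genes tested had groups that did not overlap. The median log2 fold change of the 25 was 0.06 and that of all genes tested was 0.00. Ilp6 and Akh entered the test only through the injured group, in which they were higher. Leaving Akh aside, the 21 genes that did not pass had log2 fold changes between -0.29 and 0.30.

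Nplp2 (FBgn0040813), a neuropeptide-like precursor first identified in peptide extracts of the central nervous system, showed the largest fall. It was at 82.3, 149, 91.0, 116 and 79.1 TPM in uninjured libraries 1 to 5, and at 50.2, 41.0, 30.0, 20.2 and 24.4 TPM in injured libraries 1 to 5. Every injured library lay below every uninjured one, and the level was 3.02-fold lower, with a log2 fold change of -1.60 ± 0.22 (SE; edgeR adjusted p = 0.000174). The call held in each of the 19 refits run, with log2 fold changes from -1.77 to -1.44.

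Markers of fat body, the fly's store of fat, were measured beside Nplp2. Of 11 fat body genes tested, 2 were lower, 0 were higher (also 0 by DESeq2 and limma-voom) and the median log2 fold change was -0.01. Their summed level was 2096, 3323, 2734, 3644 and 1695 TPM in uninjured libraries 1 to 5 and 1259 to 1734 TPM in injured libraries. Uninjured libraries 2 and 4 were thus the highest of their group for both Nplp2 and the summed fat body markers. Of 7 hemocyte (blood cell) genes tested, 3 were lower (beside 6.13% of all genes tested), and the median log2 fold change was -0.80. Their summed level was 106, 147, 110, 173 and 92.1 TPM in uninjured libraries 1 to 5, also highest in libraries 2 and 4. In injured libraries it was 61.9 to 103 TPM. This peak was not particular to these lists. Uninjured libraries 2 and 4 were also highest for summed muscle markers (610 and 542 TPM) and for Lk (304 and 306 TPM). They were not the highest 2 for summed gut enzyme, neuronal or photoreceptor markers. The share of all genes with this peak was not counted. No gene of the fat body or hemocyte list was at the lowest count in every library. The part of fat body or blood cells in the fall of Nplp2 was not tested.

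ITP (FBgn0035023), ion transport peptide, an antidiuretic hormone that also regulates thirst, fell by less. It was at 8.76, 8.78, 8.30, 8.18 and 8.76 TPM in uninjured libraries 1 to 5, and at 5.74, 6.80, 7.23, 6.18 and 6.37 TPM in injured libraries 1 to 5. The uninjured libraries were closely grouped and all lay above the injured ones. The level was 1.27-fold lower, with a log2 fold change of -0.34 ± 0.08 (SE; edgeR adjusted p = 0.00879). Leaving out uninjured library 1, 2, 3 or 5, or injured library 2, 4 or 5, took the adjusted p past 0.01, over all single-library omissions it ran from 0.00685 to 0.0225, and the log2 fold change stayed between -0.40 and -0.29. An exon of CG4622 overlaps 296 of the 4686 exon bases of ITP on the opposite strand in a later annotation. No source says that reads were counted by strand, so such reads cannot be told apart.

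Ilp6 (FBgn0044047), an insulin-like peptide known from fat body and from surface glia, was the peptide gene that rose. It was at 1.83, 1.87, 2.10, 1.67 and 1.85 TPM in uninjured libraries 1 to 5, and at 3.73, 4.15, 2.03, 3.86 and 4.11 TPM in injured libraries 1 to 5. Injured library 3 lay within the uninjured range, while the other 4 injured libraries were all above it. The level was 1.99-fold higher, with a log2 fold change of 1.00 ± 0.20 (SE; edgeR adjusted p = 0.00257). Without injured library 3 the log2 fold change was 1.14. The call held in all 10 single-library omissions, with edgeR adjusted p up to 0.00986. It was lost with the column number as a replicate block (edgeR adjusted p = 0.01). Ilp6 entered the test only through the injured group, in which it was higher. No fat body gene of the list above was higher after injury, and glial markers were not measured here. The part of fat body or glia in the rise of Ilp6 was not tested.

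Akh (FBgn0004552), adipokinetic hormone, mobilises stored sugar and fat and is made by the corpora cardiaca, a gland beside the foregut and not part of the VNC. It did not pass, and its values are shown because of their spread, chosen after they were seen. Its counts were 2, 2, 3, 1 and 2 in uninjured libraries 1 to 5 and 4, 13, 15, 2 and 25 in injured libraries 1 to 5. Injured libraries 2, 3 and 5 were at 3.05, 3.01 and 4.82 TPM, and all other libraries were at or below 0.78 TPM. The log2 fold change was 2.53 ± 0.64 (SE; edgeR adjusted p = 0.0123). Summed counts were 59 in injured and 10 in uninjured libraries, and injured library 5 alone held 25. The gene entered the test only through the injured group, where it was high. DESeq2 called the gene (adjusted p = 0.00308), as did edgeR without injured library 1 or without injured library 4, at adjusted p = 0.00426 and 0.00285. Those omissions remove the injured libraries with the fewest counts, 4 and 2, and they were the only 2 of 10 omissions that passed. In all, Akh passed in 4 of 18 refits with edgeR, DESeq2 or limma, at adjusted p from 0.00215 to 0.0624. The log2 fold changes ran from 1.40 to 2.80. AkhR, its receptor, was below the 2 TPM filter and was not tested. It was at 1.02 to 2.88 TPM in uninjured and 0.387 to 1.00 TPM in injured libraries.

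**Figure D2:**
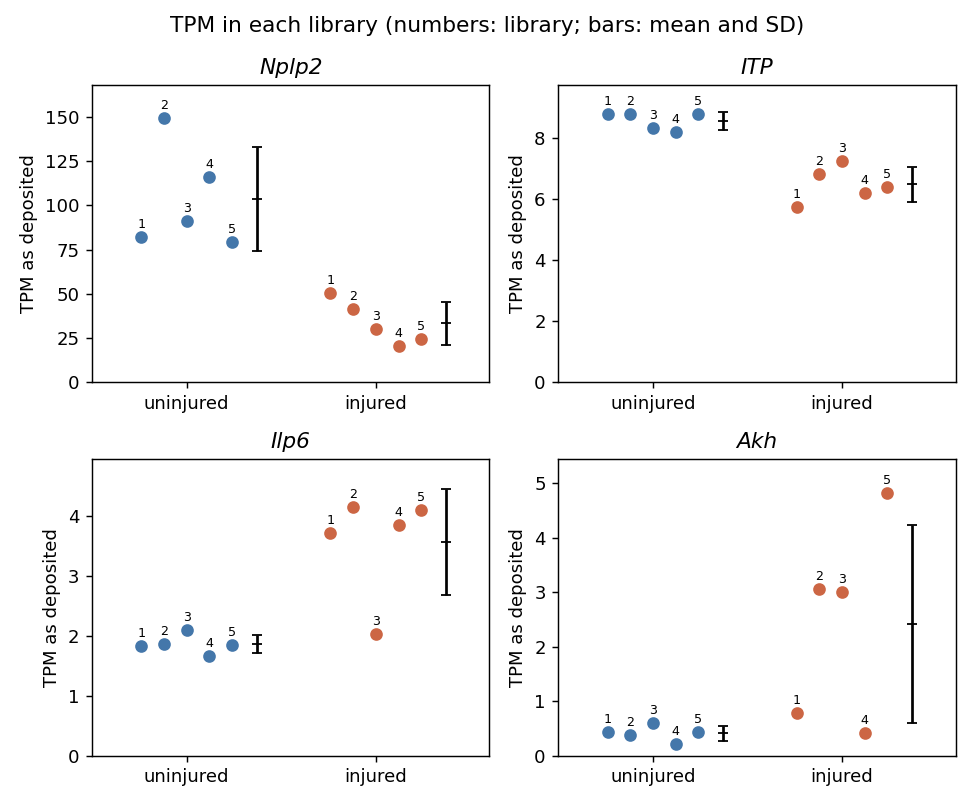
TPM of Nplp2, ITP, Ilp6 and Akh in each library. Points are single libraries with their column number beside them, and black bars give the mean and SD of 5. Groups are separate for Nplp2 and ITP, injured library 3 of Ilp6 lies within the uninjured range, and Akh is high in injured libraries 2, 3 and 5 only.

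Of the 12 neuromodulator genes tested, 0 passed in edgeR, DESeq2 or limma-voom (1, Tk, had an unadjusted p under 0.05 in edgeR), with log2 fold changes from -0.21 to 0.16. In edgeR 7.55% of all genes tested passed as higher and 6.13% as lower. At such shares few of 12 genes would pass. Nplp1, a precursor of several amidated peptides used by VNC neurons, was at 354, 329, 374, 337 and 308 TPM in uninjured libraries 1 to 5, and at 348, 292, 375, 246 and 261 TPM in injured libraries 1 to 5. The groups overlapped, and injured libraries 4 and 5 were the lowest of all 10. The log2 fold change was -0.11 ± 0.10 (SE; edgeR adjusted p = 0.461).

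Proc, the precursor of proctolin, a modulator of muscle contraction made by motor neurons, was among the steadiest. It was at 313, 296, 290, 276 and 337 TPM in uninjured libraries 1 to 5, and at 287, 262, 318, 280 and 259 TPM in injured libraries 1 to 5. The ranges largely coincided, and the log2 fold change was -0.05 ± 0.08 (SE; edgeR adjusted p = 0.709).

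FMRFa encodes FMRFamide-related peptides, released from thoracic neurosecretory cells and active on muscle. It was at 168, 169, 175, 153 and 139 TPM in uninjured libraries 1 to 5, and at 174, 149, 215, 129 and 137 TPM in injured libraries 1 to 5. Injured library 3 was the highest of all and injured library 4 the lowest, and the log2 fold change was 0.06 ± 0.11 (SE; edgeR adjusted p = 0.757).

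The other neuromodulator genes changed little. Tk, the tachykinin precursor, came nearest to passing, at 10.5 to 12.1 TPM in uninjured and 7.88 to 11.0 TPM in injured libraries, with a log2 fold change of -0.21 ± 0.08 (SE; edgeR adjusted p = 0.0728). AstA and AstC, precursors of inhibitory allatostatins, had log2 fold changes of 0.11 ± 0.06 and 0.00 ± 0.13. Those of sNPF, short neuropeptide F, a feeding peptide, and of Mip, the myoinhibitory peptide precursor, were 0.07 ± 0.08 and 0.14 ± 0.11. The CCHamide genes CCHa1 and CCHa2 gave 0.08 ± 0.11 and 0.16 ± 0.15. Ms, the myosuppressin gene, whose product lowers muscle contraction, gave -0.11 ± 0.14, and amn (amnesiac), named for its memory phenotype, gave 0.05 ± 0.12. AstA, AstC, Tk, Mip, CCHa1 and CCHa2 are also gut hormones. Of 17 gut digestive enzyme genes tested, 11 were lower in edgeR (14 by DESeq2 and 2 by limma-voom) and 0 higher in any of the 3, with summed levels of 154 to 924 TPM in uninjured libraries (highest in library 2) and 52.6 to 101 TPM in injured libraries. Among all genes tested, 6.13% were lower in edgeR. The part of gut tissue in the levels of these peptides was not tested.

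Of the 17 neuromodulator genes matched, Hug, NPF, SIFa, Dsk and AstCC were below the filter. NPF, the fly counterpart of vertebrate neuropeptide Y, was at 1.61, 1.23, 1.12, 0.203 and 2.36 TPM in uninjured libraries 1 to 5 and at 0.380 to 0.713 TPM in injured libraries. That is 1 to 12 counts against 2 to 4 counts, and uninjured library 4 lay below every injured library.

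Of the 7 matched hormone genes of water and energy balance, 6 were tested: ITP was lower, and Lk, Capa, Dh31, Dh44 and Akh did not pass. Crz, the gene of the stress-linked peptide corazonin, was at 11 counts or fewer. Lk, the precursor of the diuretic hormone leucokinin, was at 231, 304, 264, 306 and 219 TPM in uninjured libraries 1 to 5, and at 288, 167, 270, 152 and 169 TPM in injured libraries 1 to 5. Injured libraries 1 and 3 lay within the uninjured range and injured libraries 2, 4 and 5 lay below it. The log2 fold change was -0.29 ± 0.16 (SE; edgeR adjusted p = 0.198). An antisense RNA overlaps 582 of the 626 exon bases of Lk in a later annotation, so the reads of both cannot be told apart.

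Capa, the precursor of the CAPA peptides that act on the Malpighian tubules, showed the same split. It was at 240, 274, 224, 249 and 236 TPM in uninjured libraries 1 to 5, and at 291, 200, 294, 164 and 177 TPM in injured libraries 1 to 5. Here injured libraries 1 and 3 were above every uninjured library and injured libraries 2, 4 and 5 below every one. The coefficient of variation was 7.62% among uninjured and 27.9% among injured libraries. With a log2 fold change of -0.07 ± 0.13 (SE; edgeR adjusted p = 0.749), the group means were close while the injured libraries were spread.

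Dh31 and Dh44, the calcitonin-like and CRF-like diuretic hormones, gave log2 fold changes of -0.13 ± 0.09 and 0.14 ± 0.09 (SE). Dh31 was at 57.3 to 73.4 TPM in uninjured libraries, at 68.0 and 67.0 TPM in injured libraries 1 and 3, and at 48.3 to 53.7 TPM in injured libraries 2, 4 and 5. Dh44 was at 10.0 to 12.5 TPM and at 10.1 to 13.4 TPM.

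The split among injured libraries was counted over all genes, a pattern chosen after the values were seen. After TMM scaling, injured libraries 1 and 3 were both above injured libraries 2, 4 and 5 for 8 of the 25 peptide genes (32.0%): Nplp1, Lk, Capa, FMRFa, Dh31, Tk, Dh44 and CCAP. The same held for 16.5% of all genes tested. On the TPM scale it held for 12 of 25 peptide genes (48.0%) and for 30.1% of all genes, so the scale moved both shares. Summed over the 39 genes, the level was 1802 to 1965 TPM in uninjured libraries. It was 1884 and 1950 TPM in injured libraries 1 and 3, and 1531, 1412 and 1443 TPM in injured libraries 2, 4 and 5. Abd-B, a Hox gene of the hindmost abdominal segments, was at 1.98 to 2.59 TPM in uninjured libraries. In injured libraries 1 to 5 it was at 2.06, 2.06, 2.50, 1.88 and 2.03 TPM. The other abdominal Hox gene measured, abd-A, was at 6.59 to 9.15 TPM in uninjured libraries and at 8.48, 8.19, 8.33, 7.69 and 7.84 TPM in injured libraries 1 to 5. Thus abd-A was higher in injured libraries 1 and 3 than in the other 3, by a small margin, and Abd-B was higher in injured library 3 only. The part of the dissected tissue in the split was not tested.

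**Figure D3:**
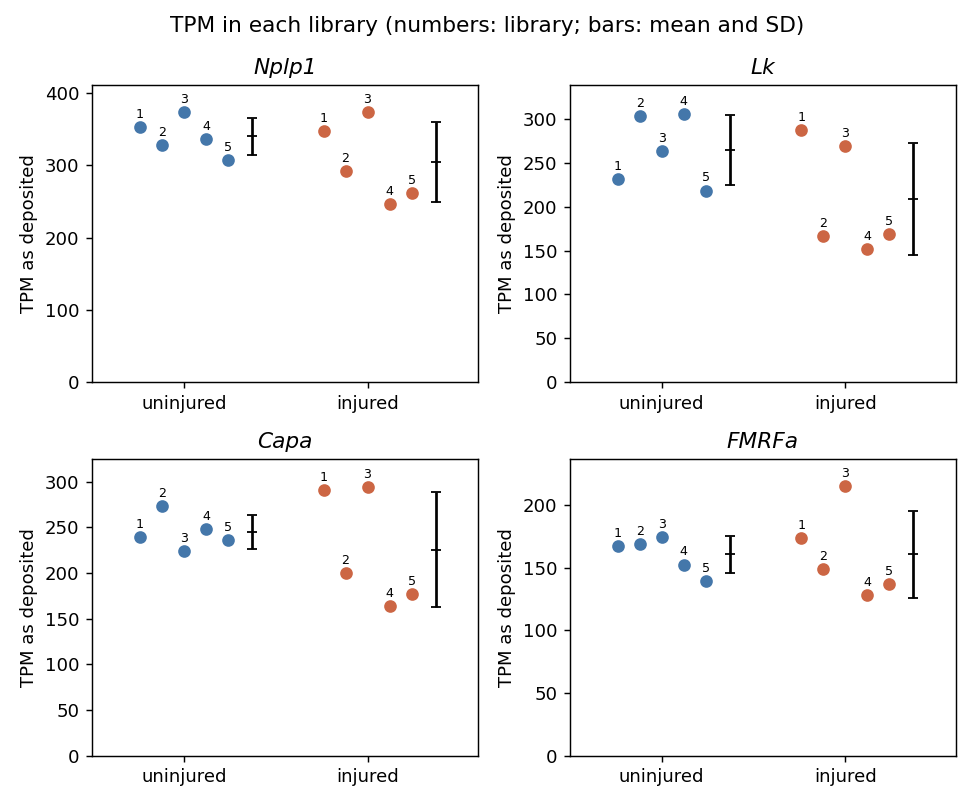
TPM of Nplp1, Lk, Capa and FMRFa in each library. Points are single libraries with their column number, and black bars give the mean and SD of 5. Injured libraries 1 and 3 lie above injured libraries 2, 4 and 5 in each panel. For Capa, injured libraries 1 and 3 lie above every uninjured library, and injured libraries 2, 4 and 5 lie below every one, at 164 to 200 TPM.

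Of the 5 matched hormones of ecdysis and cuticle, CCAP alone was above the filter. Crustacean cardioactive peptide, its product, speeds the heart and takes part in the ecdysis motor program. It was at 7.74 to 8.95 TPM in uninjured and 7.12 to 11.2 TPM in injured libraries, with a log2 fold change of 0.14 ± 0.11 (SE; edgeR adjusted p = 0.361).

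Of the 6 matched insulin-like and relaxin-like genes, Ilp2, Ilp6 and Ilp7 were tested and Ilp6 alone passed. Ilp7, made by neurons of the VNC, some of which innervate the reproductive tract, was at 4.58 to 9.57 TPM in uninjured and 5.44 to 7.62 TPM in injured libraries, and its log2 fold change was 0.07 ± 0.17 (SE; edgeR adjusted p = 0.787). Ilp2, known from the insulin-producing cells of the brain, was at 1.76 to 3.74 TPM and 1.87 to 3.54 TPM, with a log2 fold change of 0.06 ± 0.26 (SE). Ilp8, a relaxin-like peptide of growing and damaged larval tissue, was at 1 to 7 counts in uninjured and 1 to 4 counts in injured libraries.

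Of the neuropeptide-like precursors, Nplp3 varied most of the 25 tested genes between pools of the same group. It was at 23.4, 13.1, 14.1, 12.7 and 45.6 TPM in uninjured libraries 1 to 5, and at 12.2, 22.4, 3.60, 60.0 and 29.0 TPM in injured libraries 1 to 5. Injured library 4 was the highest of all and injured library 3 the lowest. The log2 fold change was 0.30 ± 0.58 (SE; edgeR adjusted p = 0.746). Markers of muscle had a summed level of 416, 610, 470, 542 and 499 TPM in uninjured libraries 1 to 5 and of 694, 954, 205, 1798 and 854 TPM in injured libraries 1 to 5. Among injured libraries, library 4 was again the highest and library 3 the lowest, but among uninjured libraries the muscle markers were highest in library 2, where Nplp3 was at 13.1 TPM, and Nplp3 was highest in library 5. Of the muscle genes, 0 of 19 passed in edgeR, DESeq2 or limma-voom. In edgeR 5 had an unadjusted p under 0.05, all of them higher, and the median log2 fold change of the 19 was 0.78. The part of muscle in the level of Nplp3 was not tested. Nplp4 was at 1 to 3 counts in every library.

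**Figure D4:**
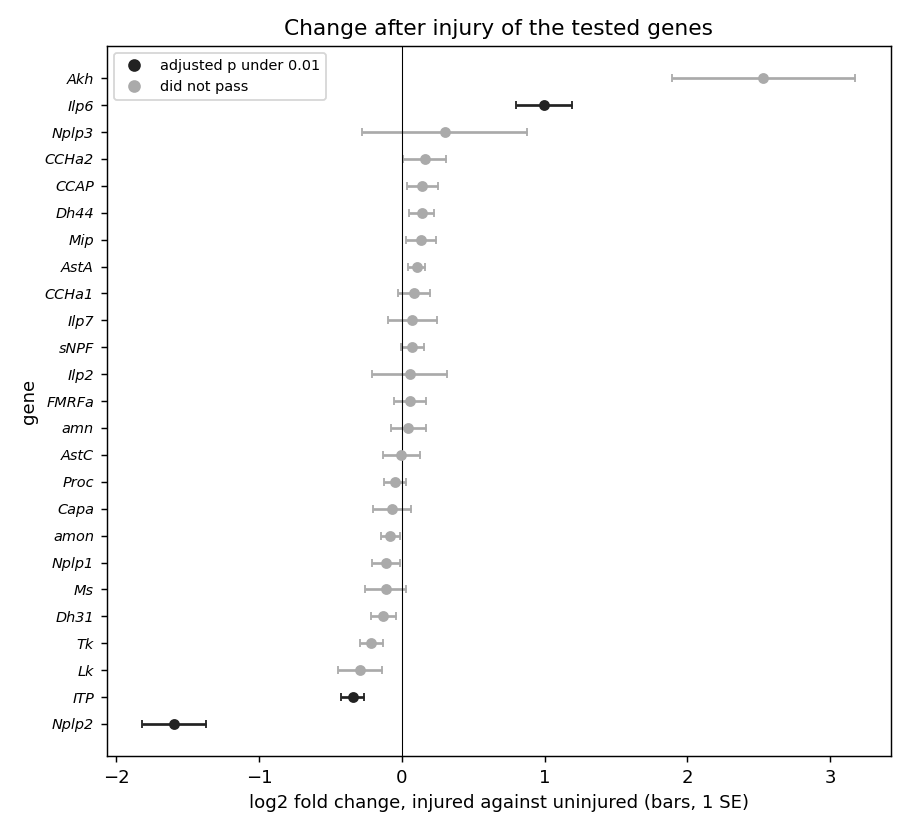
Log2 fold change of the 25 tested genes, injured against uninjured, with 1 SE from the edgeR fit. Dark points passed at an adjusted p under 0.01 (Nplp2, ITP and Ilp6) and grey points did not. Akh has the largest positive value with a wide bar, and most genes lie near 0.

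The gene amon encodes prohormone convertase 2, the enzyme that cuts most neuropeptide precursors. It was at 133, 124, 134, 123 and 138 TPM in uninjured libraries 1 to 5, and at 124, 113, 134, 109 and 114 TPM in injured libraries 1 to 5. The groups overlapped, and the log2 fold change was -0.08 ± 0.07 (SE; edgeR adjusted p = 0.435). Of the 13 other processing and release genes tested, QC was higher, 0 were lower in edgeR and limma-voom (1 by DESeq2, and 1 at an unadjusted p under 0.05 in edgeR) and 12 did not pass. Among all genes tested, 7.55% were higher and 6.13% lower in edgeR. QC, a glutaminyl cyclase that forms the N-terminal pyroglutamate of some peptides, was at 2.30 to 4.08 TPM in uninjured and 6.15 to 7.33 TPM in injured libraries, with a log2 fold change of 1.02 ± 0.14 (SE; edgeR adjusted p = 0.000161). The most abundant that did not pass were ia2, a dense-core vesicle membrane protein, at 474 TPM before and 481 TPM after injury (log2 fold change 0.08 ± 0.10), and Cadps, which primes these vesicles for release, at 185 and 178 TPM (log2 fold change 0.01 ± 0.07).

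Receptors of these and of some other peptides were compared next. The list also holds receptors whose peptides are not among the genes above, such as Pdfr, TrissinR and CNMaR. Of 39 receptor genes matched, 29 were tested, 4 were higher (13.8%), 3 were lower (10.3%) and 22 did not pass, beside 7.55% higher and 6.13% lower among all genes tested. TPM ranges did not overlap between groups for 10 of the 29, the 7 that passed among them, beside 15.8% of all genes tested, and the median log2 fold change of the list was 0.13. SPR, which binds sex peptide and the myoinhibitory peptides from Mip, fell most. It was at 65.6 to 76.9 TPM in uninjured and 32.9 to 42.6 TPM in injured libraries (log2 fold change -0.88 ± 0.08, SE; edgeR adjusted p = 3.64e-06). The gap between groups was wider than the range within either, while Mip itself did not pass.

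SIFaR, the SIFamide receptor, was at 3.50 to 4.17 TPM in uninjured and 4.20 to 7.64 TPM in injured libraries (log2 fold change 0.82 ± 0.15, SE; edgeR adjusted p = 0.00131), while SIFa was at 8 counts or fewer. InR, the receptor of insulin-like peptides, was at 10.9 to 13.4 TPM in uninjured and 18.8 to 21.9 TPM in injured libraries (log2 fold change 0.74 ± 0.07, SE; edgeR adjusted p = 4.54e-06). Of the insulin-like and relaxin-like genes tested, Ilp6 rose, and Ilp2, Ilp7 and Ilp1 (of the further precursors below) did not pass.

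Dh44-R2, a receptor of Dh44, was at 16.0 ± 0.808 TPM in uninjured and 9.43 ± 0.678 TPM in injured libraries (mean ± SD, n = 5; log2 fold change -0.70 ± 0.07, SE; edgeR adjusted p = 1.06e-05). The proctolin receptor gene Proc-R fell too (log2 fold change -0.58 ± 0.10), and the leucokinin receptor gene Lkr rose (0.57 ± 0.07), while their ligand genes did not pass. FMRFaR rose as well (0.55 ± 0.13, edgeR adjusted p = 0.00774), a call that held without uninjured library 5 or injured library 1 but was lost without each of the other 8 libraries in turn (adjusted p 0.0112 to 0.0231), without the filter, and with limma on log2 TPM at both pseudocounts. In all, it passed in 8 of 19 refits. The other 6 receptor calls held in all 19 refits. Whether a receptor moved differently from its ligand was not tested. MsR2, a myosuppressin receptor, at 19.9 and 20.9 TPM, and sNPF-R, at 9.78 and 10.0 TPM, had the highest CPM (counts scaled to the library total) among receptors that did not pass.

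**Figure D5:**
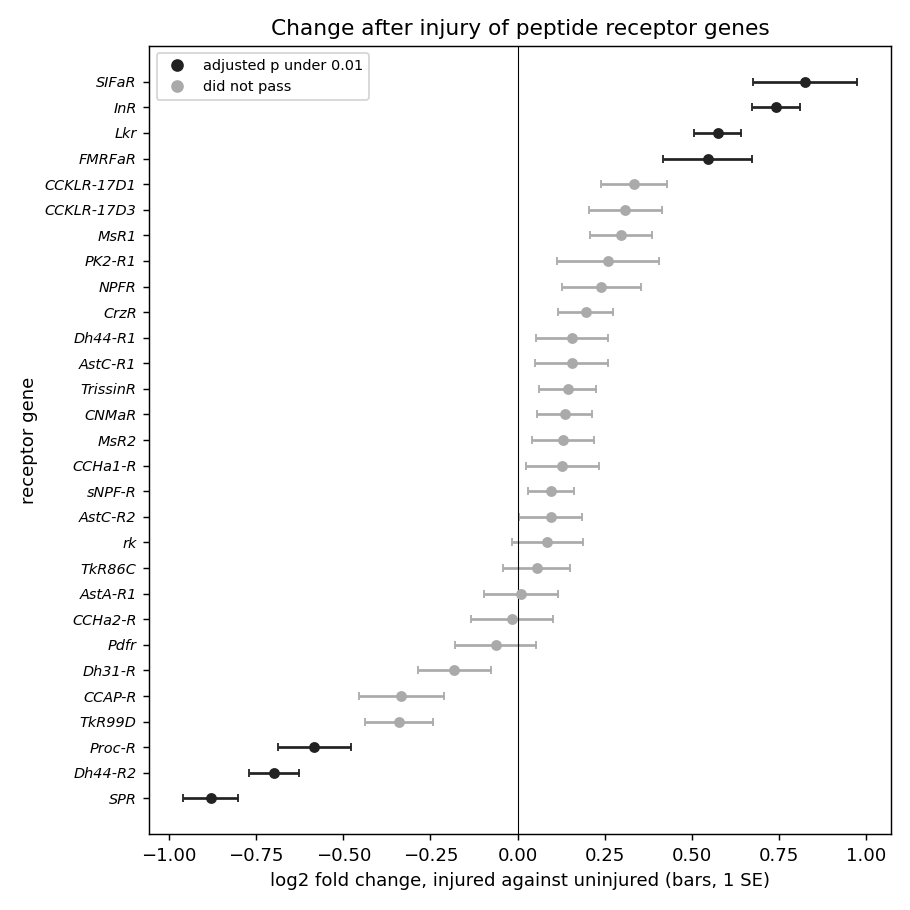
Log2 fold change of the 29 tested peptide receptor genes, injured against uninjured, with 1 SE from the edgeR fit. Dark points passed at an adjusted p under 0.01, 4 above and 3 below 0, and grey points did not.

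Of 9 further peptide precursor genes matched, 5 were tested and 0 passed in edgeR, DESeq2 or limma-voom (0 also at an unadjusted p under 0.05). Orcokinin was at 60.7 to 90.1 TPM in uninjured libraries and at 88.5, 52.6, 80.1, 43.7 and 42.8 TPM in injured libraries 1 to 5, the split seen for Lk and Capa, with a log2 fold change of -0.24 ± 0.17 (SE; edgeR adjusted p = 0.335). The precursor gene spab was at 56.5 and 51.6 TPM (log2 fold change -0.07 ± 0.07). Of 18 neuronal marker genes, all tested, 1 was higher and 0 were lower, beside 7.55% and 6.13% of all genes tested. Their median log2 fold change was 0.04, with summed levels of 2286 to 2872 TPM in uninjured and 2312 to 2590 TPM in injured libraries. Of 15 photoreceptor genes, 4 were above the filter and 0 of these passed in edgeR, DESeq2 or limma-voom (3 had an unadjusted p under 0.05), with a median log2 fold change of -2.26 and summed levels of 37.9 to 70.2 TPM and 29.0 to 44.5 TPM.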

How the data were processed

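The authors used BWA within GeneSifter on single reads from rRNA-depleted libraries and deposited estimated counts per gene, within 0.00063 of whole numbers and rounded here, and TPM values that follow the formula of RPKM (the totals of the deposited RPKM-like columns run from 272919 to 323458). No version of these tools is given in the sources used. Their fold changes, p-values and quality sheets were not used. Of 14351 genes with values, 9365 above a mean of 2 TPM in at least 1 group were tested on all 10 libraries with edgeR 4.0.16 (R 4.3.3), TMM scaling, full library totals and no covariates. DESeq2 1.42.0, limma 3.58.1, other filters and scalings, thresholds, a block and single-library omissions were alternatives. Code was tested on simulated data. The genes and lists (made from knowledge of fly biology) were chosen with earlier results of these data known. Values in every library are given for peptide genes that passed or did not overlap and for the 6 most abundant others. Each pathway list names up to 4 called genes of largest change and up to 2 others of highest CPM. Proc-R, Lkr, FMRFaR, AkhR, Akh, Nplp3, NPF, Tk, Dh31, abd-A and Abd-B values were added after they were seen. Coordinates and sequences are not given, since the annotation is of a later build.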

Additional observations from a re-analysis of the deposited data

Results flagged for a closer look

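Among 78 groups of 5 libraries (25 peptide genes and 14 named pathway genes, TPM), 3 held a library whose gap to its nearest neighbour exceeded Dixon's 95% critical value of 0.71, where chance flags about 1 in 20 groups. Ilp6 in injured library 3 was at 2.03 TPM against 3.73 to 4.15 TPM in the other 4, and amn in injured library 1 was at 3.23 TPM against 4.55 to 4.84 TPM. Dh44 in uninjured library 3 was at 12.5 TPM against 10.0 to 10.7 TPM.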

How the results depend on the processing

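Of the 25 peptide genes, 22 kept their call in all refits, and Ilp6, ITP and Akh did not. The count of peptide genes that rose (1) became 2 with DESeq2, 2 at an adjusted p under 0.05 and 0 with at least a 2-fold change required, and ran from 1 to 2 over single-library omissions. The count that fell (2) became 1 without the filter, 1 with the column number as a block and 1 with at least a 2-fold change, and ran from 1 to 2 over omissions. ITP gave adjusted p = 0.0225 without the filter. Receptors that rose (4) became 3 without the filter and 3 with limma on log2(TPM + 0.5) or log2(TPM + 0.1), ran from 3 to 4 over omissions, and became 7 at an adjusted p under 0.05 and 0 with at least a 2-fold change, and those that fell (3) became 0 with at least a 2-fold change. Processing genes that rose (1) became 2 at an adjusted p under 0.05 and ran from 1 to 2 over omissions. Those that fell (0) became 1 with DESeq2, 1 with library totals and 1 at an adjusted p under 0.05, and ran from 0 to 1. At 1 TPM 28 peptide genes were expressed and at 5 TPM 21. The cause of these moves was not tested. Columns share only a number: correlations of same-numbered columns ran from -0.14 to 0.323, and columns 2, 3 and 5 matched their own number best. With the column number as a replicate block ITP (adjusted p = 0.0168) and Ilp6 (adjusted p = 0.01) did not pass and Akh did (adjusted p = 0.00215). Of the peptide genes that did not pass, 9 changed sign in at least 1 refit. Low counts limit the 14 genes below the filter and Akh.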
